A study of Rattus norvegicus with 6 samples.

Results

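The genes described here build and regulate the microtubule and intermediate filament cytoskeleton. A list of 42 symbols was drawn up by function: α-, β- and γ-tubulins, structural microtubule-associated proteins, plus-end tracking proteins, stathmins, doublecortin family members, collapsin response mediator proteins, neurofilament proteins and related intermediate filaments, and growth-associated membrane proteins. Of the 42 symbols, 41 were found among the 33350 gene models of the deposited expression table, and Nes had no row under that symbol. Where a symbol had several rows, the row with the highest mean was taken. Expression was measured in rat cells whose label is PC12, an adrenal pheochromocytoma line widely used as a model of neurite outgrowth. In the EN group (n = 3 libraries), the cells had received exosomes, small vesicles secreted by cells, from endothelial cells that express netrin-1 at a high level. In the EC group (n = 3 libraries), they had received exosomes from control endothelial cells. All 6 libraries therefore come from exosome-treated cells, and a group without exosomes was not analysed here. The sources used here give neither the dose, nor the length of treatment, nor the origin of the endothelial cells. Nothing states whether the 3 libraries of a group came from separate cultures, so the spread behind each p-value is that between these libraries and may be technical.

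Microtubules are hollow polymers of α- and β-tubulin dimers that grow and shrink mainly at their plus ends, and γ-tubulin seeds them. Cells carry several tubulin genes, or isotypes, whose use differs between tissues: in rodents Tuba1a, Tubb2a, Tubb2b and Tubb3 are prominent in neurons, while Tubb6 is a minor isotype in most tissues. Structural microtubule-associated proteins stabilise the polymer, stathmins bind free dimers and promote shrinkage, and neurofilaments, peripherin and vimentin form a separate network of intermediate filaments.

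Worked back from the table, total reads per library were 16654025 to 19626012 in EN and 15296193 to 16165804 in EC, so every EN library was deeper than every EC library. The mitochondrial share of reads was 4.40% to 5.50% in EN and 5.43% to 6.09% in EC. The label PC12 was set against marker lists. Levels are in FPKM, the read number of a gene scaled to the length of its model and to library size. Of 17 chromaffin and sympathoadrenal markers with a row, 3 reached 1 FPKM on average. Of the rest, 4 had no read in any library, Pnmt and Hand2 among them. The highest of that list were Gch1, with 19.9 ± 1.41 FPKM in EN and 19.1 ± 0.786 FPKM in EC, Slc18a2, with 3.94 ± 0.285 FPKM in EN and 4.83 ± 0.466 FPKM in EC, and Th, the tyrosine hydroxylase of catecholamine synthesis, with 1.66 ± 0.0495 FPKM in EN and 1.29 ± 0.233 FPKM in EC (SD, n = 3 each). The median of the 17 was 0.167 FPKM, so several defining markers of the labelled cell type were absent or close to it. Their summed level was 26.8 to 29.0 FPKM in EN and 26.0 to 28.6 FPKM in EC. The summed level of 16 Schwann cell and glial markers was 686 to 703 FPKM in EN and 727 to 748 FPKM in EC, led by Cdh2, Ngfr and S100b. Whether these leading markers are specific to glia was not tested. The median of these 16 was 8.02 FPKM, and 9 of them lay under 10 FPKM. The mature neuron and fibroblast lists, whose sums are given below, had medians of 0.547 and 0.314 FPKM. The cells are called by their label in what follows.

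Of the 41 genes, 32 averaged 1 FPKM or more over the 6 libraries and were tested, and 9 lay below that minimum. With limma, which fits a linear model to every gene and shares information on the spread across genes, on log2(FPKM + 1), at a Benjamini-Hochberg adjusted p under 0.05 over all genes tested, 11 of the 32 passed. The same test passed 14.4% of all 12198 genes tested, and 18.0% of the 9204 genes averaging 5 FPKM or more, where 11 of 30 cytoskeletal genes passed. Higher in EN were 4, Tubb6, Map1a, Basp1 and Marcksl1, against a background of 7.24%. Lower in EN were 7, Tuba1a, Tubb2a, Tubb2b, Map1b, Map4, Dclk1 and Crmp1, against a background of 7.14%. Counts moved with single libraries: 1 of the 32 passed without EN library 2, EC library 2 or EC library 3, 3 without EN library 1, 7 without EC library 1 and 10 without EN library 3. Over all genes 338 to 446 passed in the first 4 of these fits, against 1754 with all libraries. With every gene kept in the fit, Tubb2b, Tubb6, Map1b, Map4, Crmp1 and Marcksl1 did not pass (adjusted p 0.0625 to 0.0802 by limma). Without the trend of variance on level, Tubb2b, Tubb6, Map1a, Map1b, Map4 and Crmp1 did not (0.0587 to 0.103). The median log2 change, EN minus EC, was -0.11 over the 32 tested genes and -0.0028 over all genes tested. The 3 EN values lay above the 3 EC values for 6 of the 32 (background 18.6%) and below them for 12 (background 19.4%), so that 18 did not overlap, against a background of 37.9%. Adding 1 before the logarithm makes the log2 changes of low genes too small. In bulk RNA, fewer cells of a type and less RNA per cell cannot be told apart.

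**Figure D1:**
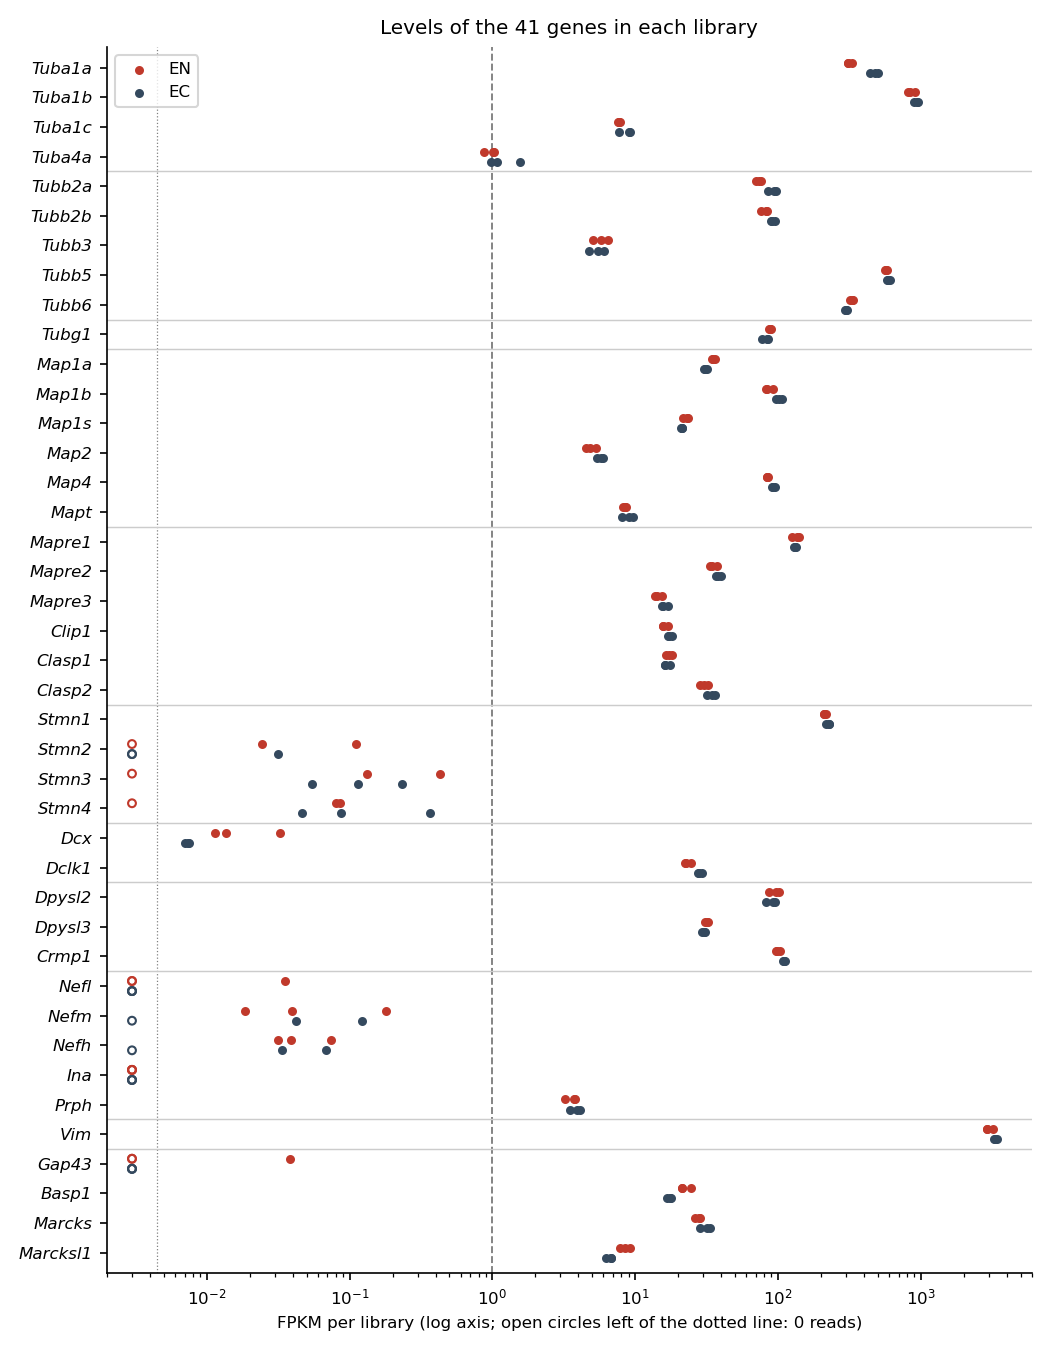
Level of the 41 genes (FPKM, log x axis), with 1 point per library, EN above EC in each row, open circles for 0 reads, a dashed line at the minimum of 1 FPKM and grey lines between roles. Vim, Tuba1b and Tubb5 lie at the high end, and the neurofilament genes, Ina, Gap43, Dcx and Stmn2 to Stmn4 at the low end in both groups.

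**Figure D2:**
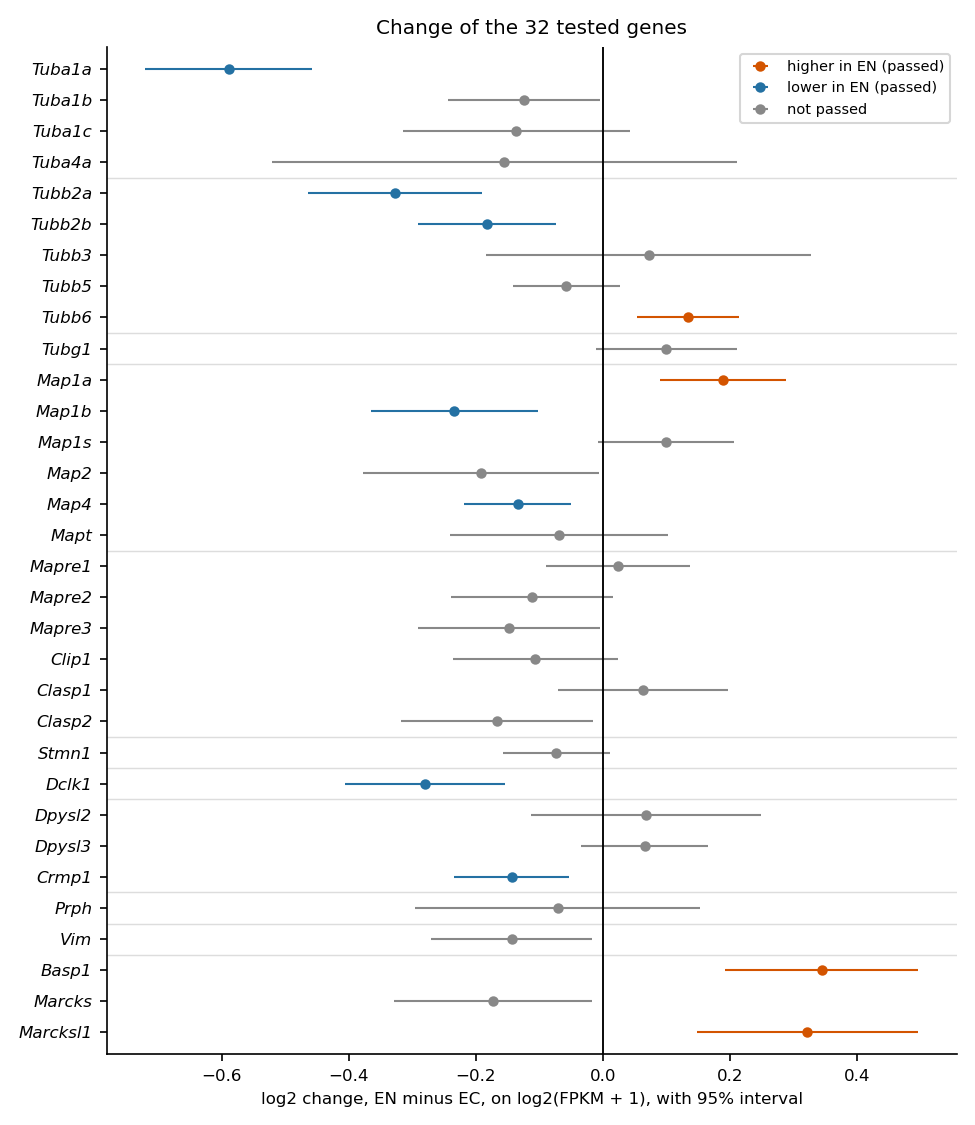
Log2 change, EN minus EC, of the 32 tested genes on the log2(FPKM + 1) scale (x axis), with bars for 95% confidence intervals from limma and colour by whether the adjusted p was under 0.05. Tuba1a stands furthest to the left at -0.59, and Basp1 and Marcksl1 furthest to the right at 0.34 and 0.32.

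The α-tubulin genes were led by Tuba1b, and Tuba1a was the gene with the largest change among the 32. Tuba1a, an α-tubulin isotype of developing neurons, had 309, 309 and 329.8 FPKM in EN libraries 1 to 3, against 443, 505 and 480.2 FPKM in EC libraries 1 to 3. Every EN library lay far below every EC library. Its means were 316 ± 12.0 FPKM in EN and 476 ± 30.8 FPKM in EC (SD, n = 3 each). Tuba1a thus fell by 33.6% in EN relative to EC. The log2 change was -0.59 (SE 0.0555, 95% interval -0.72 to -0.46), with an adjusted p of 0.00313 by limma. This call held without any 1 library, with adjusted p between 0.00485 and 0.0226. Tuba1b, which encodes a nearly identical and more broadly used α-tubulin, had 837, 816 and 907 FPKM in EN, against 899, 957 and 933 FPKM in EC. The groups overlapped through EN library 3, and the log2 change of -0.13 (95% interval -0.24 to -0.01) did not pass (adjusted p = 0.14 by limma). It passed without EN library 3, at 0.0404, and after quantile normalization, at 0.0299.

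The ratio of Tuba1a to Tuba1b within each library was 0.369, 0.379 and 0.364 in EN and 0.493, 0.527 and 0.514 in EC, with no overlap. An exact two-sided permutation test gave p = 0.1, the smallest that 3 against 3 allows, and 0.125 after adjustment over the 5 gene pairs compared. As Tuba1a fell far more in EN than Tuba1b varied across all libraries, that outcome was fixed by their separate values and adds no evidence. Tuba1a made up 26.7 ± 0.383% of summed α-tubulin FPKM in EN and 33.5 ± 0.728% in EC, and Tuba1b 72.2 ± 0.450% in EN and 65.5 ± 0.768% in EC (SD, n = 3 each). The summed level of the 9 α-tubulin rows of the table was 1182 ± 59.0 FPKM in EN and 1420.2 ± 61.3 FPKM in EC. Transcripts of α-tubulin isotypes are close in sequence, and how reads that match more than 1 of them were assigned is not given, so the division between Tuba1a, Tuba1b and Tuba1c is uncertain. Tuba1c had 7.71 ± 0.158 FPKM in EN and 8.59 ± 0.816 FPKM in EC, with an overlap (adjusted p = 0.258 by limma). A further Tuba1c model on chromosome 7 had 4.11 ± 0.512 FPKM in EN and 4.06 ± 0.541 FPKM in EC. Tuba4a, low in these cells, had 0.969 ± 0.0816 FPKM in EN and 1.21 ± 0.306 FPKM in EC, a log2 change of -0.16 whose 95% interval ran -0.52 to 0.21.

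Among the β-tubulins, both neighbouring class II genes were lower in EN and Tubb6 was higher. Tubb2a had 75.8, 73.2 and 69.6 FPKM in EN, against 84.8, 94.2 and 96.2 FPKM in EC. All 3 EN libraries lay below all 3 EC libraries, with a log2 change of -0.33 (SE 0.0580, adjusted p = 0.0183 by limma). Tubb2b, whose coding sequence is near-identical, had 83.4, 83.0 and 76.4 FPKM in EN, against 94.7, 91.3 and 89.9 FPKM in EC. The groups again did not overlap, and the log2 change was -0.18 (SE 0.0461, adjusted p = 0.0437 by limma). Reads may be split between these genes, so their separate values are uncertain. Their ratio, Tubb2a to Tubb2b, was 0.901 ± 0.0163 in EN and 0.999 ± 0.0916 in EC and overlapped. Tubb6 had 336, 331 and 319.9 FPKM in EN, against 303, 299.7 and 297 FPKM in EC. Its lowest EN library exceeded its highest EC library, with a log2 change of 0.13 (SE 0.0339, adjusted p = 0.0440 by limma).

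These 3 β-tubulin calls moved with single libraries. The adjusted p of Tubb2a was 0.0450 without EN library 1, 0.0306 without EN library 3 and 0.0138 without EC library 1, and it missed the threshold in the other fits, with 0.0679 without EN library 2, 0.0729 without EC library 2 and 0.0691 without EC library 3. Tubb2b passed in none of the 6 fits that left 1 library out (0.0514 to 0.121), and gave 0.0809 on a TPM scale. For Tubb6 the value was 0.0292 without EN library 3, and it missed the threshold in the other fits, with 0.128 without EN library 1, 0.151 without EN library 2, 0.0657 without EC library 1, 0.139 without EC library 2 and 0.132 without EC library 3. Tubb5, the most abundant β-tubulin here, had 563, 573 and 581 FPKM in EN, against 581, 613 and 593 FPKM in EC, with a log2 change of -0.06 (95% interval -0.14 to 0.03, adjusted p = 0.303 by limma, and 0.0230 after quantile normalization). Tubb3, the class III isotype used as a neuronal marker, had 5.08, 5.76 and 6.42 FPKM in EN, against 4.75, 6.07 and 5.45 FPKM in EC, with a log2 change of 0.07 (95% interval -0.18 to 0.33). The ranges of the groups overlapped for Tubb3.

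Summed over the 8 β-tubulin rows, including the abundant Tubb4b, which is not on the list, the level was 1515 ± 18.0 FPKM in EN and 1529.9 ± 28.1 FPKM in EC (SD, n = 3 each). Within that sum, Tubb6 made up 21.7 ± 0.407% in EN and 19.6 ± 0.401% in EC, Tubb2a 4.81 ± 0.179% in EN and 6.00 ± 0.387% in EC, and Tubb2b 5.34 ± 0.210% in EN and 6.01 ± 0.208% in EC. The ratio of Tubb6 to Tubb5 was 0.575 ± 0.0230 in EN and 0.503 ± 0.0164 in EC without overlap (exact two-sided permutation p = 0.1, adjusted 0.125 over 5 pairs). As Tubb6 lay above and Tubb5 slightly below in all EN libraries, that outcome was fixed by their separate values and adds no evidence. Tubg1, the main γ-tubulin of microtubule nucleation, had 87.8 ± 1.65 FPKM in EN and 81.9 ± 4.45 FPKM in EC, a log2 change of 0.10 with a 95% interval of -0.01 to 0.21 (adjusted p = 0.194 by limma).

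**Figure D3:**
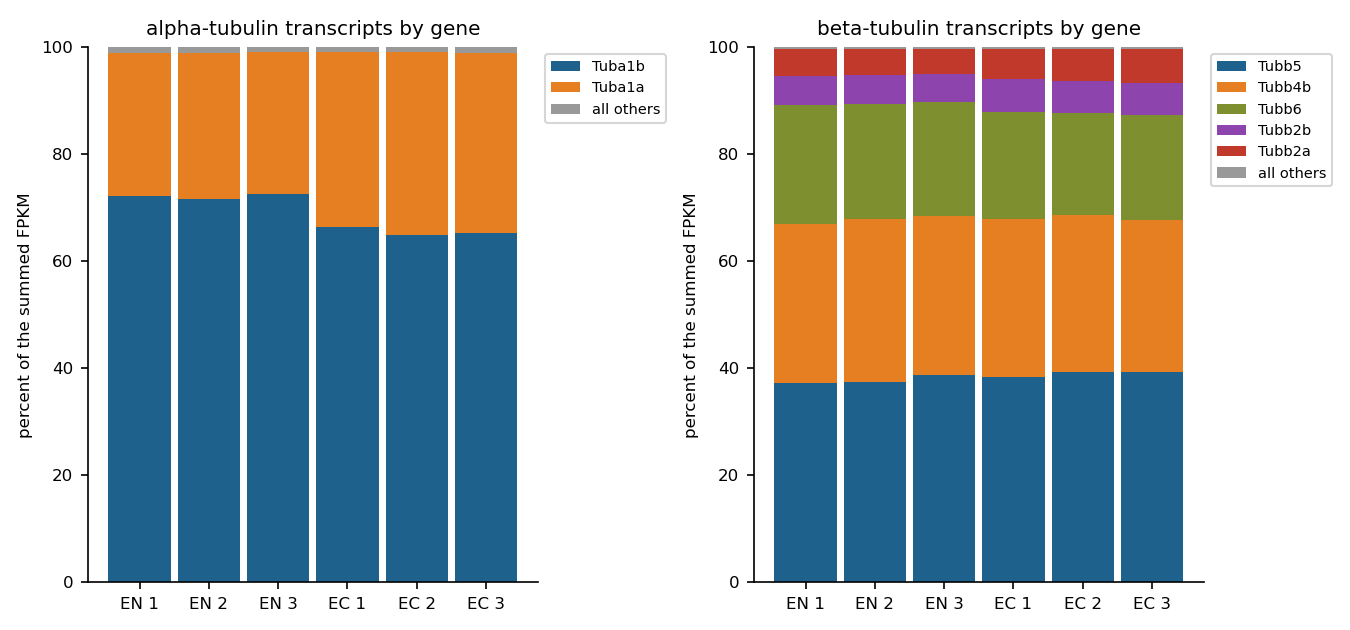
Share of summed FPKM taken by each isotype (y axis, percent, stacked to 100) in each library, for α-tubulins on the left and β-tubulins on the right. Tuba1a takes a smaller share in the EN libraries (26.7% on average) than in the EC libraries (33.5%), and Tubb6 a larger one (21.7% in EN, 19.6% in EC).

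In the table's Rnor_6.0 coordinates, Tuba1b (chr7:140614752-140617721) and Tuba1a (chr7:140637287-140640953) lie close together, as do Tubb2b (chr17:31441630-31482759) and Tubb2a (chr17:31493107-31498651), while Tubb6 lies alone at chr18:63130542-63140181. To set genes that passed beside near-identical or related ones, the 150 bases before the annotated start of the 5 genes are shown, from RefSeq on the GRCr8 build, a later build than the table's. The positions are chr7:131995820-131995969 on the minus strand for Tuba1a, chr7:131972588-131972737 on the minus strand for Tuba1b, chr17:31002036-31002185 on the plus strand for Tubb2a, chr17:30952936-30953085 on the plus strand for Tubb2b and chr18:63213137-63213286 on the plus strand for Tubb6. Each is written 5′ to 3′ on the gene's strand, and capitals mark exact matches on either strand to a CCAAT box (CCAAT or ATTGG), a GC box (GGGCGG or CCGCCC) or a TATA box (TATAAA or TTTATA).
Tuba1a: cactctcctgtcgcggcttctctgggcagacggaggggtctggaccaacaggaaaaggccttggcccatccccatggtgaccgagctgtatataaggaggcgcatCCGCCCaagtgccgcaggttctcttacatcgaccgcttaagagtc
Tuba1b: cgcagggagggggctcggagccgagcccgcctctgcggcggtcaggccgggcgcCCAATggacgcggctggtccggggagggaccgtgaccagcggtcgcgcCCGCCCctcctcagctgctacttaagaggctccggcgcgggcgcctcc
Tubb2a: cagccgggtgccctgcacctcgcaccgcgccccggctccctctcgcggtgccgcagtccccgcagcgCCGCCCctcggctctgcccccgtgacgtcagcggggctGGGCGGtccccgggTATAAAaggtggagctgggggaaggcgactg
Tubb2b: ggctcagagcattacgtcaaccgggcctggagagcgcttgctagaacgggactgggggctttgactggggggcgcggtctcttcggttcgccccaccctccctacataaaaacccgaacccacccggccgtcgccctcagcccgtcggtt
Tubb6: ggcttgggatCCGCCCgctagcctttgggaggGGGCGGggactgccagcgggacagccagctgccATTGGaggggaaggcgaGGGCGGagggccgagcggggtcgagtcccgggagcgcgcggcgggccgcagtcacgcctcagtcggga
The Tuba1a window, with a GC content of 59.3%, held 1 GC box match, and that of Tuba1b, with 77.3%, held 1 GC box and 1 CCAAT match. The Tubb2a window held 2 GC box matches and 1 TATA match, that of Tubb2b held none of the 3 motifs, and that of Tubb6 held 3 GC box matches and 1 CCAAT match. Over 27457 RefSeq promoters of the same length, 23.7% held a CCAAT match, 27.8% a GC box match and 8.16% a TATA match. Of the 32 listed genes with a promoter entry, 12, 20 and 5 did. A match is a run of letters in the window, not a measured binding site. Near forms were not counted, such as tataag in the Tuba1a window and cataaa in the Tubb2b window.

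Of the structural microtubule-associated proteins, 1 of 6 tested was higher in EN (background 7.24%) and 2 were lower (background 7.14%). Map1a, the large stabilising protein of mature dendrites, had 35.2, 34.5 and 36.5 FPKM in EN, against 31.9, 30.6 and 30.3 FPKM in EC. The EN libraries all lay above the EC libraries, with a log2 change of 0.19 (SE 0.0419, adjusted p = 0.0303 by limma). Map1b, its relative in growing axons, had 82.0, 84.3 and 91.6 FPKM in EN, against 96.2, 102 and 106 FPKM in EC. Here all EN libraries lay below the EC libraries, with a log2 change of -0.23 (SE 0.0557, adjusted p = 0.0370 by limma). The ratio of Map1a to Map1b was 0.413 ± 0.0160 in EN and 0.306 ± 0.0235 in EC, again without overlap (exact two-sided permutation p = 0.1, adjusted 0.125 over 5 pairs). As Map1a lay above and Map1b below in all EN libraries, that outcome was fixed by their separate values and adds no evidence. Map4, the broadly expressed member of the Map2 and tau family, had 84.4, 83.5 and 85.5 FPKM in EN, against 92.3, 95.7 and 90.5 FPKM in EC. Its groups did not overlap, with a log2 change of -0.13 (SE 0.0356), and its adjusted p of 0.0493 by limma was the nearest to the threshold of the 11.

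The calls of Map1a and Map1b were lost without EN library 1 (adjusted p 0.0845 for Map1a and 0.109 for Map1b), EN library 2 (0.0838 and 0.121 in the same order), EC library 2 (0.108 and 0.115) or EC library 3 (0.103 and 0.117). Map4 passed in none of the 6 fits that left 1 library out (0.0534 to 0.168), and also missed the threshold with a replicate block (0.0710), a TPM scale (0.0537), median centring (0.0568) and a pseudocount of 0.1 (0.0501). Map2, the dendritic protein, had 4.55, 4.82 and 5.34 FPKM in EN, against 5.44, 5.78 and 6.00 FPKM in EC. Its EN values all lay below its EC values, and the log2 change of -0.19 (95% interval -0.38 to -0.01) did not pass (adjusted p = 0.145 by limma). Mapt, which encodes tau, had 8.49 ± 0.223 FPKM in EN and 8.98 ± 0.800 FPKM in EC, with an overlap and a log2 change of -0.07 (95% interval -0.24 to 0.10). Map1s had 22.8 ± 0.931 FPKM in EN and 21.2 ± 0.209 FPKM in EC, without overlap and with a log2 change of 0.10 that did not pass (95% interval -0.01 to 0.21, adjusted p = 0.182 by limma).

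Of the 6 plus-end proteins, which gather at growing microtubule ends, 0 passed at the adjusted p of 0.05 by limma (background 14.4%). With 6 genes, a count of 0 does not set them apart from that background. Of the 6, 2 (Mapre3 and Clasp2) had an unadjusted p under 0.05, and 0 passed with voom on whole reads. Mapre1, which encodes the end-binding protein EB1, had 126, 136 and 141 FPKM in EN, against 129, 133 and 134 FPKM in EC, with a log2 change of 0.02 (95% interval -0.09 to 0.14). Its EC values lay inside the EN range. Mapre2 had 35.3 ± 2.13 FPKM in EN and 38.1 ± 1.31 FPKM in EC, and Mapre3, the neuronal member of that family, 14.4 ± 0.791 FPKM in EN and 16.1 ± 0.862 FPKM in EC. Clip1, which links growing ends to cargo and cortex, had 16.1 ± 0.863 FPKM in EN and 17.4 ± 0.620 FPKM in EC. The stabilising proteins Clasp1 and Clasp2 had 17.4 ± 0.838 and 30.2 ± 1.83 FPKM in EN, against 16.6 ± 0.797 and 34.1 ± 2.16 FPKM in EC (SD, n = 3 each). Clasp2 had a log2 change of -0.17 (95% interval -0.32 to -0.02, adjusted p = 0.122 by limma), and passed with a replicate block, at 0.0435.

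**Figure D4:**
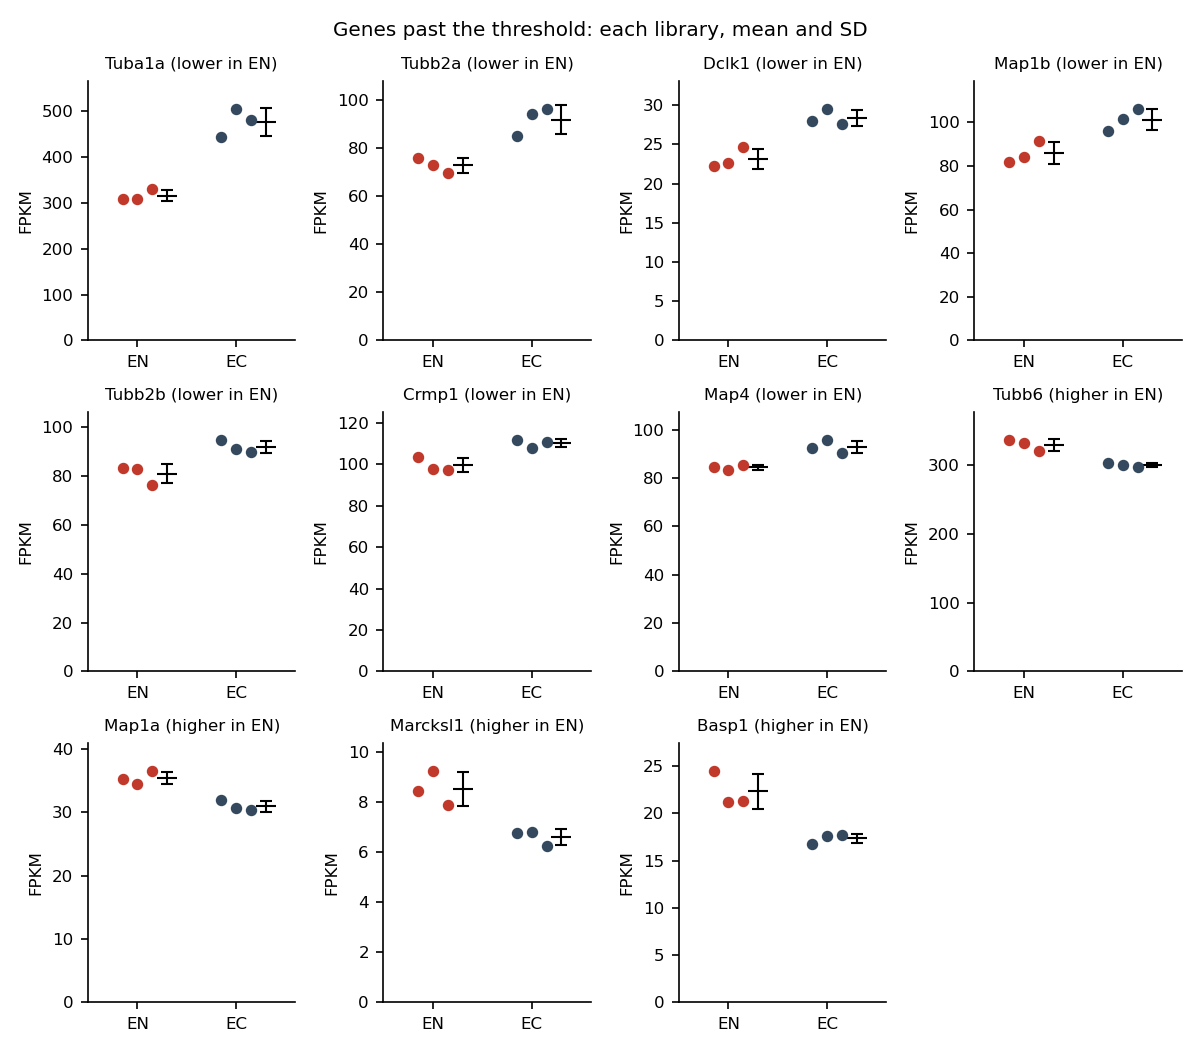
FPKM (y axis, starting at 0) of the 11 genes with an adjusted p under 0.05, in separate panels, with each library as a point, EN left of EC, and the mean ± SD of each group (n = 3) beside it. In every panel the 3 EN libraries and the 3 EC libraries do not overlap, with EN above EC for Tubb6, Map1a, Basp1 and Marcksl1 and below it for the other 7.

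Stathmin expression came almost wholly from Stmn1, with 99.9% of the summed stathmin FPKM in both groups. Stmn1, the widely expressed stathmin of dividing cells, had 209, 217 and 209 FPKM in EN, against 226, 227 and 217 FPKM in EC. The groups met at 217 FPKM, and the log2 change was -0.07 (95% interval -0.16 to 0.01, adjusted p = 0.201 by limma). The neuronal stathmins were barely read. Stmn2, a marker of growing axons, had 5 reads over the EN libraries and 1 over the EC libraries, Stmn3 had 11 in EN and 7 in EC, and Stmn4 had 4 in EN and 11 in EC. Pooled over all 6 libraries, their levels were 0.0289 FPKM for Stmn2 (exact Poisson 95% interval 0.0106 to 0.0629), 0.158 FPKM for Stmn3 (0.0937 to 0.250) and 0.106 FPKM for Stmn4 (0.0591 to 0.174). These intervals cover counting error only.

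Of the 2 doublecortin family genes on the list, Dclk1 was tested and Dcx lay below the minimum level. Dclk1, a kinase with doublecortin-type microtubule-binding domains, had 22.3, 22.6 and 24.6 FPKM in EN, against 27.9, 29.5 and 27.6 FPKM in EC. Every EN value was lower than every EC value, with a log2 change of -0.28 (SE 0.0533, adjusted p = 0.0210 by limma). The call was lost without EN library 1 (0.0699), EN library 2 (0.0823), EC library 2 (0.0819) or EC library 3 (0.0686). Dcx, the microtubule protein of migrating young neurons, had 9 reads over the EN libraries and 3 over the EC libraries, or 0.0135 FPKM pooled over all 6 (exact Poisson 95% interval 0.00698 to 0.0236).

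Of the collapsin response mediator proteins, which bind tubulin dimers and act downstream of axon guidance cues, 1 of 3 passed (background 14.4%). Crmp1 had 104, 97.8 and 97.5 FPKM in EN, against 112, 108 and 111 FPKM in EC. The groups did not overlap, and Crmp1 was lower in EN by a log2 change of -0.14 (SE 0.0381, adjusted p = 0.0491 by limma). It passed in none of the 6 fits that left 1 library out (0.0637 to 0.164), nor on a TPM scale (0.0966) or after quantile normalization (0.0507). Dpysl2, which promotes axon growth and is the best-studied of the family, had 94.9 ± 7.91 FPKM in EN and 90.5 ± 6.71 FPKM in EC, with a log2 change of 0.07 (95% interval -0.11 to 0.25). Dpysl3 had 31.7 ± 0.752 FPKM in EN and 30.2 ± 0.933 FPKM in EC, with a log2 change of 0.07 (95% interval -0.03 to 0.17). Both overlapped between the groups.

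Among the 6 cytoplasmic intermediate filament genes on the list that had a row, Vim held nearly all of the level, and the neurofilament genes were at or near 0 in both groups. Vim, the filament protein of mesenchymal, glial and other non-epithelial cells, took 99.9% of the summed FPKM of Vim, Prph, Nefl, Nefm, Nefh and Ina in EN and in EC. It had 2886, 2925 and 3215 FPKM in EN, against 3303, 3400.0 and 3260.1 FPKM in EC, and its EN values lay below its EC values. The log2 change of -0.14 (95% interval -0.27 to -0.02) did not pass (adjusted p = 0.115 by limma). It passed without EN library 3, at 0.0292, and with voom on whole reads, at 0.0432. Prph, a filament protein of peripheral neurons, had 3.81, 3.72 and 3.24 FPKM in EN, against 3.89, 4.12 and 3.47 FPKM in EC. The groups overlapped, with a log2 change of -0.07 (95% interval -0.30 to 0.15).

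The 3 neurofilament subunits were read at the level of single reads. Nefl, the light subunit, had 2 reads over the EN libraries and 0 over the EC libraries, where 3 reads would be 0.0190 FPKM. Nefm, the medium subunit, had 14 reads in EN and 8 in EC, and Nefh, the heavy subunit, 10 in EN and 6 in EC. Their pooled levels over 6 libraries were 0.0715 FPKM for Nefm (exact Poisson 95% interval 0.0448 to 0.108) and 0.0414 FPKM for Nefh (0.0237 to 0.0672). Ina, which encodes α-internexin, had 0 reads in all 6 libraries (exact Poisson 95% interval 0 to 0.00800 FPKM), where 3 reads would be 0.00651 FPKM. Its model overlaps that of Nt5c2 on the other strand, and whether reads there were counted by strand is not given. These genes lay below the minimum level for the test, and a difference between the groups was not tested.

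Nestin, the filament protein of neural progenitors, was on the list as Nes. The table described LOC100910255 as nestin-like, under 2 gene models on chromosome 2, named here after their values were seen. The model at chr2:187344056-187352969 had 24.0, 21.4 and 17.6 FPKM in EN, against 16.1, 13.4 and 12.1 FPKM in EC. The EN libraries lay above the EC libraries, with a log2 change of 0.56 (SE 0.133, adjusted p = 0.0366 by limma). It did not pass without EN library 1 (0.103), EN library 2 (0.112), EC library 2 (0.112) or EC library 3 (0.113), nor with every gene kept in the fit (0.0869) or without the trend of variance on level (0.0627). The other model, at chr2:184900037-184908345, had 4.08 ± 0.461 FPKM in EN and 3.26 ± 0.416 FPKM in EC, with a log2 change of 0.25 that did not pass (adjusted p = 0.164 by limma). Reads may be split between these models, so each value is uncertain.

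The growth-associated membrane proteins bind the inner face of the membrane and calmodulin and are enriched in growth cones. Basp1 had 24.5, 21.2 and 21.3 FPKM in EN, against 16.8, 17.6 and 17.7 FPKM in EC. All EN libraries were above all EC libraries, with a log2 change of 0.34 (SE 0.0642, adjusted p = 0.0205 by limma). Marcksl1 had 8.45, 9.25 and 7.89 FPKM in EN, against 6.77, 6.82 and 6.27 FPKM in EC. It too was higher in every EN library, with a log2 change of 0.32 (SE 0.0735, adjusted p = 0.0328 by limma). Its paralog Marcks had 28.0, 26.4 and 28.5 FPKM in EN, against 28.5, 33.5 and 32.0 FPKM in EC, a log2 change of -0.17 (95% interval -0.33 to -0.02) that did not pass (adjusted p = 0.122 by limma) but did without EC library 1, at 0.0409. The ratio of Marcksl1 to Marcks was 0.310 ± 0.0378 in EN and 0.212 ± 0.0219 in EC, without overlap (exact two-sided permutation p = 0.1, adjusted 0.125 over 5 pairs). As Marcksl1 lay above and Marcks narrowly below in all EN libraries, that outcome was fixed by their separate values and adds no evidence. Gap43, the classic growth cone protein of this group, had 1 read over the EN libraries and 0 over the EC libraries, or 0.00671 FPKM pooled over all 6 (exact Poisson 95% interval 0.00017 to 0.0374). The call of Basp1 was lost without EN library 2 (0.0556), EC library 2 (0.0718) or EC library 3 (0.0691). That of Marcksl1 was lost without EN library 1 (0.0913), EN library 2 (0.110), EC library 1 (0.0559), EC library 2 (0.0899) or EC library 3 (0.106).

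**Figure D5:**
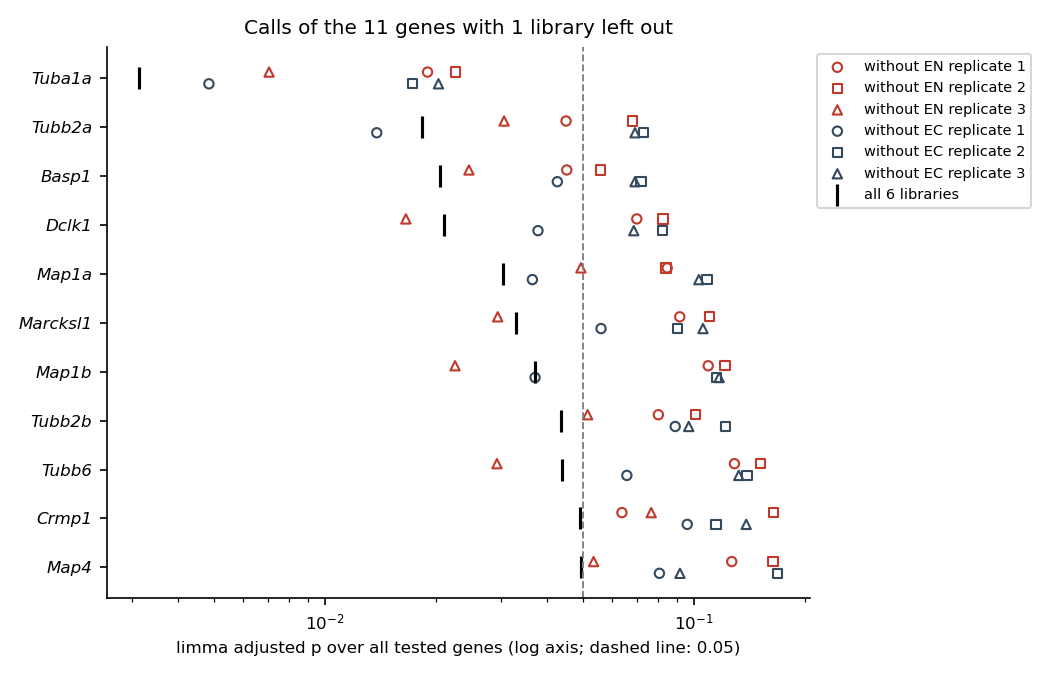
Adjusted p by limma (x axis, log scale) of the 11 genes, as a black bar for all 6 libraries and an open symbol for each of the 6 fits that left out 1 library, with a dashed line at 0.05. Tuba1a stays on the passing side in all 6, with a highest value of 0.0226, and Tubb2b, Map4 and Crmp1 in none.

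The rest of the cytoskeletal machinery was covered by 7 lists, in which 25 of 145 tested genes passed, against 14.4% of all genes tested. Without EN library 1, EN library 2 or EC library 2, 4 of the 145 passed, and without EC library 3, 6. In the fit of genes averaging 5 FPKM or more, 29 of 134 list genes passed, against 22.0% of all 9204. For each list, the background over all genes tested was 7.24% higher in EN and 7.14% lower. Of 21 tubulin folding genes tested, 2 were higher in EN and 0 lower by limma (2 lower at an unadjusted p under 0.05, 0 with voom on whole reads). Vbp1, a prefoldin subunit, had 33.5 ± 3.89 FPKM in EN and 22.0 ± 2.18 FPKM in EC (log2 change 0.58, adjusted p = 0.0173 by limma). Cct7, a subunit of the chaperonin that folds tubulin and actin, had 155 ± 2.99 FPKM in EN and 130.2 ± 9.22 FPKM in EC (log2 change 0.26, adjusted p = 0.0270). Of 19 tubulin modifying and severing enzymes tested, 3 were higher and 0 lower by limma (3 lower at an unadjusted p under 0.05, 2 with voom on whole reads). Vash1, a tubulin carboxypeptidase that removes the terminal tyrosine of α-tubulin, had 32.9 ± 0.836 FPKM in EN and 24.4 ± 0.761 FPKM in EC (log2 change 0.41, adjusted p = 0.00443). Ttl, the ligase that puts that tyrosine back, had 16.2 ± 0.438 FPKM in EN and 13.4 ± 0.944 FPKM in EC (log2 change 0.25, adjusted p = 0.0369). Ttll12, a relative of that ligase, was also higher in EN, by a log2 change of 0.16 (adjusted p = 0.0313).

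Among 26 other microtubule-associated proteins tested, 5 were higher (background 7.24%) and 1 lower (background 7.14%). Map6, which stabilises microtubules against cold, had 27.8 ± 0.566 FPKM in EN and 22.1 ± 0.987 FPKM in EC (log2 change 0.32, adjusted p = 0.0104 by limma). Clip2 was higher in EN by a log2 change of 0.33 (adjusted p = 0.0147) and Gas2l1, which links microtubules to actin, by 0.30 (adjusted p = 0.0193). Map1lc3a, known for its part in autophagy, was lower, with a log2 change of -0.26 (adjusted p = 0.0200). Of 32 transport motor genes, 2 were higher and 4 lower, against the same backgrounds. The higher ones were Klc4 (log2 change 0.43, adjusted p = 0.0188 by limma) and Kif1c (log2 change 0.20, adjusted p = 0.0386). The lower ones included the dynein chain Dync1i2, with 113 ± 5.01 FPKM in EN and 133 ± 3.22 FPKM in EC (log2 change -0.23, adjusted p = 0.0205), and Dync1li2 (log2 change -0.16, adjusted p = 0.0396).

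Of 12 other tubulins and γ-tubulin complex genes tested, 1 was higher (background 7.24%) and 2 were lower (background 7.14%). The higher one was Tubgcp6 (log2 change 0.21, adjusted p = 0.0461 by limma). The lower ones were Mzt2b (log2 change -0.29, adjusted p = 0.00957) and Tubgcp5 (log2 change -0.23, adjusted p = 0.0461). Of 8 other intermediate filament and linker genes tested, 4 were higher and 0 lower by limma (1 lower at an unadjusted p under 0.05, 0 with voom on whole reads). The list's median change was 0.23, against -0.0028 over all genes tested. Plec, the plectin that cross-links vimentin to microtubules and actin, had 68.3 ± 0.477 FPKM in EN and 48.7 ± 2.34 FPKM in EC (log2 change 0.48, adjusted p = 0.00271). Lmna, the lamin A and C gene of the nuclear lamina, had 322 ± 8.95 FPKM in EN and 278 ± 6.87 FPKM in EC (log2 change 0.22, adjusted p = 0.0174). Lmnb2 (log2 change 0.44, adjusted p = 0.0260) and Ppl (log2 change 0.24, adjusted p = 0.0183) were higher too. Of 27 mitotic spindle and proliferation genes, 1 passed, against a background of 14.4%. It was Bub1, lower, with a log2 change of -0.16 (adjusted p = 0.0385 by limma). Of the genes named from these lists, Vash1, Map6 and Plec passed in all 6 fits that left 1 library out, and each of the other 18 missed the threshold in at least 1 of them, with a highest adjusted p of 0.0505 (Mzt2b) to 0.146 (Tubgcp6).

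Among markers of other cell types, the Schwann cell and glial list held the most genes that passed. Of its 13 tested markers, 6 were lower in EN, against a background of 7.14% of all genes tested, and 1 was higher, against 7.24%. Cdh2, the highest of the list, had 159 ± 14.8 FPKM in EN and 173 ± 3.51 FPKM in EC and overlapped (adjusted p = 0.225). S100b had 95.4 ± 7.47 FPKM in EN and 131 ± 1.15 FPKM in EC (log2 change -0.46, adjusted p = 0.00704 by limma), and Ngfr, the low-affinity neurotrophin receptor, had 114 ± 2.05 FPKM in EN and 99.9 ± 4.96 FPKM in EC (log2 change 0.19, adjusted p = 0.0325). Of 7 mature neuron markers tested, 2 were lower, against the same 7.14%. They were Ncam1 (log2 change -0.23, adjusted p = 0.0135 by limma) and Snap25 (log2 change -0.50, adjusted p = 0.0172). The summed level of the 17 mature neuron markers in the table was 433 to 454 FPKM in EN and 473 to 488 FPKM in EC. Ncam1 had 130.3 ± 4.03 FPKM in EN and 153 ± 2.81 FPKM in EC, while Uchl1, with 217 ± 13.0 FPKM in EN and 233 ± 7.33 FPKM in EC, and Scg2, with 64.7 ± 2.88 FPKM in EN and 63.2 ± 2.67 FPKM in EC, overlapped between the groups. The 16 fibroblast and mesenchyme markers summed to 286 to 294 FPKM in EN and 273 to 275 FPKM in EC. Of 7 tested, 0 passed at the adjusted p of 0.05 by limma, against a background of 14.4%. Of the same 7, 3 had an unadjusted p under 0.05 and 1 passed with voom on whole reads. The highest of that list were Prrx1, with 135 ± 7.25 FPKM in EN and 121 ± 1.30 FPKM in EC, Pdgfra, with 64.6 ± 2.28 FPKM in EN and 65.0 ± 1.57 FPKM in EC, and Twist1, with 46.7 ± 2.98 FPKM in EN and 40.1 ± 3.81 FPKM in EC. Of 13 endothelial markers, 4 were tested and 1 passed, against a background of 14.4%. It was Egfl7, with 6.09 ± 0.599 FPKM in EN and 4.12 ± 0.688 FPKM in EC (log2 change 0.47, adjusted p = 0.0411 by limma). Flt1 had 4.10 ± 0.133 FPKM in EN and 3.17 ± 0.166 FPKM in EC, and Tie1 1.70 ± 0.0553 FPKM in EN and 1.77 ± 0.276 FPKM in EC. The endothelial list had sums of 13.5 to 14.3 FPKM in EN and 10.2 to 12.2 FPKM in EC, and Cldn5 and Robo4 had no read. Whether the marker calls held with 1 library left out is not reported here. Over all genes, 338 to 2059 passed in such fits, against 1754 with all libraries. The part of these markers in the changes of tubulin, Map and growth-associated genes was not tested.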

How the data were processed

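Per the labels' protocols, RNA was extracted with Trizol and an Illumina TruSeq RNA kit was used for the libraries. The authors deposited 1 table of FPKM for 33350 gene models, with symbols and Rnor_6.0 coordinates. HISAT2 2.0.5 was used, per the submitters' processing notes. The sources used here do not give the counting tool, the annotation release or the strand setting. All non-zero values came out as whole reads (100% within 0.001 of a whole number), which gave the depths, and models without a symbol held 0.829% of these reads. Columns of other samples numbered 0.

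Groups were compared two-sided with limma (version 3.58.1, R version 4.3.3), fitted with a trend of variance on level to log2(FPKM + 1) of the 12198 genes averaging 1 FPKM or more, with Benjamini-Hochberg adjustment over all of them and a threshold of 0.05. Ratios of gene pairs were compared with exact permutation tests. Beside the 42 genes, 7 pathway and 5 marker lists held 259 entries, of which 254 were in the table. All 42 genes are reported, with up to 4 genes past the threshold with the smallest adjusted p of each pathway list and the 3 highest of each marker list. Markers named beyond these, and the nestin-like models, were chosen after their values were seen. Values of some list genes are not reported here. The genes and lists were chosen with earlier results of these data known, so no test was made of a list as a whole, and lists were summarised by counts and medians. The fit was also run on simulated reads, drawn independently per library with the same dispersion for every gene, and its outcome is not reported here. Such a simulation cannot speak to the shifts seen with 1 library left out.

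The fit was repeated with a pseudocount of 0.1 or 0.5, with every gene kept, with a minimum of 5 FPKM, on a TPM scale, with median centring, with quantile normalization, with a replicate block, without the trend, as voom on whole reads with TMM scaling, and without each library in turn. Same-numbered libraries of the groups did not deviate together (correlations of 0.088, -0.095 and -0.020), so the numbers were not taken to pair them. Genome annotation in the RefSeq table is of GRCr8, and no coordinate was converted.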

Additional observations from a re-analysis of the deposited data

How the results depend on the processing

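Of all 12198 genes tested, 1754 passed (14.4%). Without the expression filter 866 of 20495 passed (4.23%), and without the mean-variance trend 1019 of 12198 (8.35%). With 1 library left out, 338 to 2059 of 12198 passed (2.77% to 16.9%). Of the 32 cytoskeletal genes, 11 passed, against 5 without the filter, 5 without the trend and 1 to 10 with 1 library left out. The fit without the filter held 40 of the listed genes. Those higher in EN were 4, against 2 without the filter, 2 without the trend and 0 to 4 with 1 library left out; the fits without EN library 2, EC library 2 and EC library 3 each gave 0 by limma, with 4 at an unadjusted p under 0.05. Those lower in EN were 7, against 3 without the filter, 3 without the trend, 4 on a TPM scale and 1 to 6 with 1 library left out. Of the other cytoskeletal lists, 25 of 145 genes passed, against 14 of 172 without the filter. Of the same 145, 13 passed without the trend and 4 to 32 with 1 library left out. The cause of these shifts was not tested.

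Tuba1a was the only gene of the 11 to pass in every fit run. Without EN library 2, EC library 2 or EC library 3 it was the only one of the 11 left. The direction turned in 2 genes that did not pass: the log2 change of Tubb3 was 0.07, and -0.0053 (without EC library 1) to 0.14 with 1 library left out, and that of Mapre1 was 0.02, and -0.014 (without EN library 3) to 0.068. On a TPM scale, 14 rather than 8 genes reached 100 of the unit. By reads rather than FPKM, Tubb2a made up 6.75% of β-tubulin in EN and 8.35% in EC, and Tubb6 19.8% in EN and 17.7% in EC. With a replicate block 1907 genes and 11 of the 32 passed, with Map4 lost and Clasp2 gained; the libraries share only a number, and not every one deviated most like its namesake. The 9 untested genes held 0 to 22 reads over all libraries, and what difference could be detected at such numbers was not tested.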
